A study of Mus musculus with 6 samples.

Results

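Notch signalling passes between touching cells, and 10 of its genes are described here across islet RNA libraries: the receptors Notch1 to Notch4, the ligands Dll1, Dll4, Jag1 and Jag2, the DNA-binding partner Rbpj and the target Hey1. They were taken by symbol from a table of 54556 genes, and all 10 were found. RNA from whole pancreatic islets of C57BL/6 mice aged 8 weeks, kept on normal chow, was sequenced in 2 groups of 3 libraries. One group was Mettl3 flox/flox, and the other was Mettl3 flox/flox with RIP-Cre, in which a rat insulin promoter drives Cre, which the labels call a knockout of Mettl3 in β cells. Both groups carry the floxed allele and no group carries Cre alone, so Cre and deletion cannot be told apart. METTL3 is the enzyme that places the mRNA mark N6-methyladenosine (m6A).

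A Notch receptor is cut after it binds a Delta-like (Dll) or Jagged (Jag) ligand on a neighbouring cell. Its intracellular part enters the nucleus, joins RBPJ and Mastermind-like coactivators, and switches on genes of the Hes and Hey families. In the pancreas, Notch signalling is known for holding progenitors back from the endocrine fate, and in blood vessels Dll4, Notch1, Notch4 and Hey genes act in vessel sprouting and arterial identity. Notch3 is a receptor of mural cells, the contractile cells around vessels.

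Levels are FPKM (fragments per kilobase of gene, relative to a library divisor). Differences are on the log2(FPKM + 0.5) scale, labelled knockout minus flox/flox, with standard errors from limma. A gene passed at an adjusted p under 0.05 (Benjamini-Hochberg over 14497 genes with a mean of at least 1 FPKM). Whether the libraries of a group come from separate animals is not in the labels, and the spread behind each p-value may be technical. The libraries held 16398862 to 17691055 recovered reads in the flox/flox group and 16719393 to 18387313 in the other. Mettl3 itself was at 3.41 ± 0.519 FPKM (SD, n = 3) in the flox/flox group and at 4.14 ± 0.0697 (SD, n = 3) under the knockout label, so it was not lower there (difference 0.25 ± 0.11 SE, limma adjusted p = 0.12). The groups are therefore called by their labels, and every direction below rests on them. Reads summed over a gene do not tell whether single exons are missing. Insulin transcripts were abundant in both groups but lower under the knockout label, with Ins2 at 196848 ± 25057 against 80157 ± 3847 FPKM (SD, n = 3 each). Of 10 β-cell markers 9 fell and 0 rose, and their summed level was 257106 to 319383 FPKM (flox/flox) against 112093 to 125413 (labelled knockout). Of 8 tested markers of the other islet endocrine cells 0 were called by limma, and their sums overlapped.

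The motif GGACT is a common form of the sequence in which m6A is written, and the stretch around the last such motif in the coding sequence is shown for the 5 members that passed the test below. Sequences are from GENCODE M21 transcripts (GRCm38), 5′ to 3′ on the transcript strand, with GGACT in capitals. Each stretch lies within 1 coding exon. No methylation was measured in these libraries.
Notch3, chr17:32122443-32122472, minus strand, exon 33 of 33: cggtGGACTctctGGACTcaccacggcctt
Notch4, chr17:34587666-34587695, plus strand, exon 30 of 30: gcacttggtcggtGGACTtgggagcgcgcg
Dll4, chr2:119334077-119334106, plus strand, exon 10 of 11: tttgctctcccagGGACTctatgtaccaat
Jag2, chr12:112909026-112909055, minus strand, exon 26 of 26: gccgtggagatggGGACTccccagaggcag
Hey1, chr3:8664953-8664982, minus strand, exon 5 of 5: gagcatcattgaaGGACTcgatgcctccga

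Counted over the coding sequence and everything after it, the 10 members held a median of 1.26 GGACT per kb, against 0.978 (quartiles 0.485 and 1.53) over 17281 protein-coding genes. Dll4 had the highest density of the 10, with 9 motifs (2.65 per kb), and Rbpj the lowest, with 2 motifs (0.384 per kb) and 0 in its coding sequence. These are counts of letters, not of methylated sites.

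Of the 10 members, 9 had a mean of at least 1 FPKM and were tested, and Notch2 was just below. Dll4, Notch4, Jag2, Hey1 and Notch3 fell (5 of 9), 0 rose, and Notch1, Jag1, Rbpj and Dll1 did not pass. Over all tested genes 17.2% were called lower and 16.9% higher. When values were scaled to each library's total reads (own-total scaling), 7550 genes were higher and 716 lower, and of the members 1 was higher and 2 were lower. The median difference was -0.61 over the 9 tested members and -0.0045 over all tested genes. The groups did not overlap for 9 of the 10 members, 7 lower and 2 higher (Rbpj and Notch2). Among all tested genes 50.5% had groups that did not overlap, 25.4% lower and 25.1% higher, so separation alone is common in these data.

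**Figure D1:**
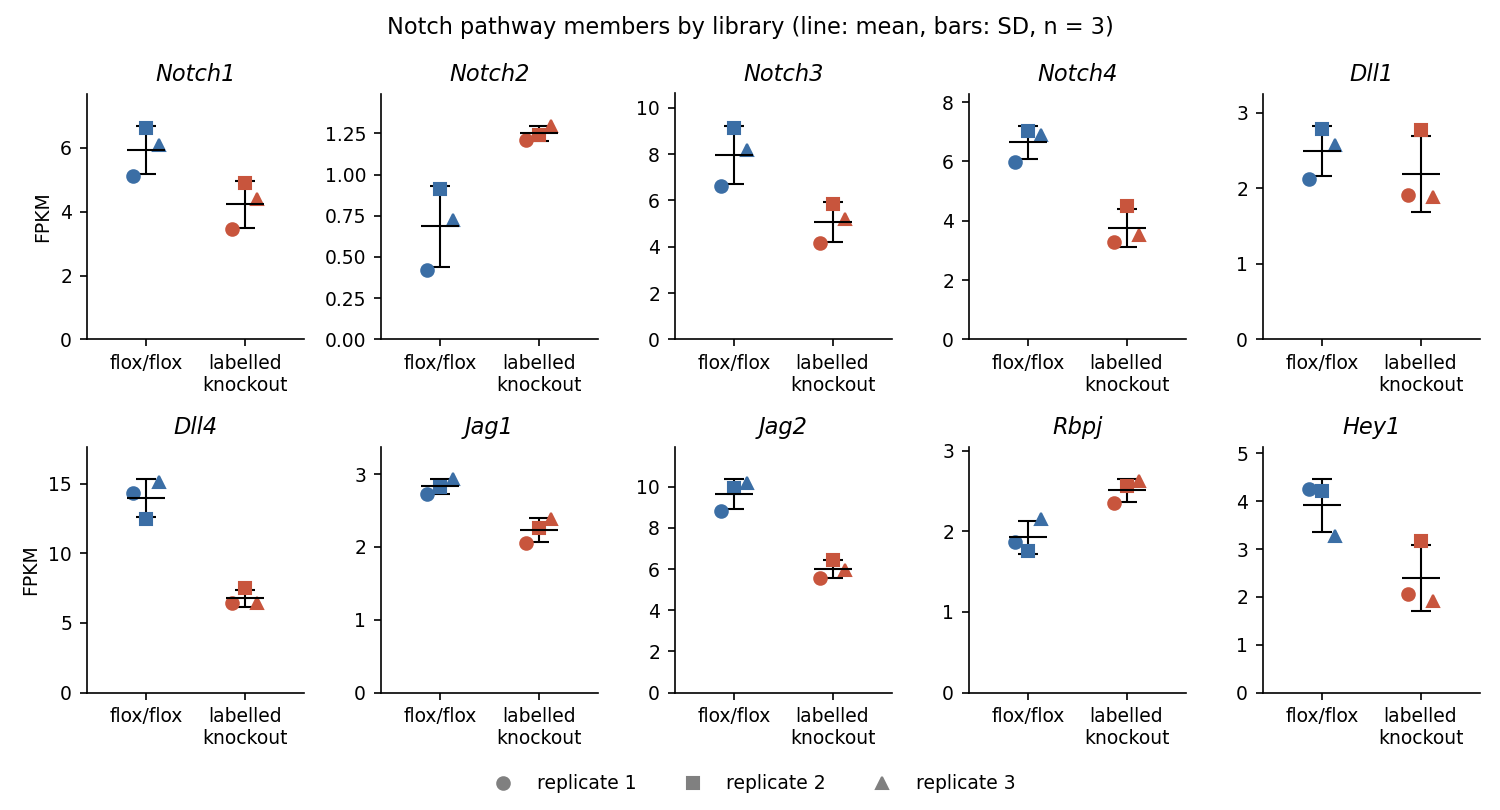
FPKM of each member (vertical axis, from 0, own scale per panel) in the 3 flox/flox and 3 labelled-knockout libraries, with points by replicate, a line at the mean and bars for the SD. Dll4 goes from 13.97 to 6.78, Rbpj and Notch2 are higher in the labelled-knockout libraries, and Dll1 overlaps.

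In flox/flox libraries the order of the mean levels was Dll4 (13.97 ± 1.37 FPKM, SD, n = 3), Jag2 (9.65 ± 0.734), Notch3 (7.97 ± 1.26), Notch4 (6.64 ± 0.567), Notch1 (5.94 ± 0.757), Hey1 (3.92 ± 0.552), Jag1 (2.83 ± 0.101), Dll1 (2.50 ± 0.335), Rbpj (1.92 ± 0.204) and Notch2 (0.686 ± 0.247). Dll4 stood apart from Jag2, while the neighbours from Jag2 to Notch1 overlapped each with the next. Hey1 stood apart from both of its neighbours, and Notch2 lay below all others. In the libraries labelled knockout the same genes held the 3 highest ranks and Notch2 the lowest, but Dll4 (6.78 ± 0.603) now overlapped with Jag2 (5.99 ± 0.444). There Rbpj, with 2.51 ± 0.141 FPKM, ranked above Hey1, Jag1 and Dll1, although the ranges of these 4 neighbours overlapped in turn.

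Among the receptors, Notch4 fell most. Notch4 (ENSMUSG00000015468, chr17:34564268-34588503, plus strand), a receptor found mainly in endothelium, was at 5.99, 7.04 and 6.89 FPKM in flox/flox replicates 1 to 3. It was at 3.28, 4.50 and 3.52 FPKM in labelled-knockout replicates 1 to 3. All 3 libraries labelled knockout lay below all 3 flox/flox libraries. The difference was -0.75 ± 0.12 (SE, limma adjusted p = 0.00552), a call kept in all 6 analyses that left out 1 library (adjusted p = 0.00376 to 0.0279).

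Notch3 (ENSMUSG00000038146, chr17:32120820-32166880, minus strand) was at 6.61, 9.11 and 8.18 FPKM in the flox/flox libraries and at 4.16, 5.85 and 5.18 in those labelled knockout. The groups did not overlap, and replicate 1 was the lowest library in each. The difference was -0.61 ± 0.15 (SE, limma adjusted p = 0.0243). That call was lost without replicate 2 or 3 of flox/flox (adjusted p = 0.0690 and 0.0753), without labelled-knockout replicate 1 or 3 (adjusted p = 0.0553 and 0.0691), and with no filter on low values (adjusted p = 0.0561).

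Notch1 (ENSMUSG00000026923, chr2:26457903-26516663, minus strand) is the receptor with the broadest known roles, in endothelium, lymphocytes and epithelia. Its level was 5.11, 6.60 and 6.09 FPKM in the flox/flox libraries and 3.44, 4.89 and 4.38 in the others. The groups were separate by a narrow margin, between labelled-knockout replicate 2 and flox/flox replicate 1. The difference of -0.45 ± 0.14 (SE) missed the threshold (limma adjusted p = 0.0517). It passed in 5 of 16 alternatives. These were without replicate 1 of flox/flox (adjusted p = 0.0481), without replicate 2 labelled knockout (adjusted p = 0.0419), with the replicate number as a block (adjusted p = 0.0143), with quantile normalization (adjusted p = 0.0304) and with voom on recovered reads (adjusted p = 0.0254). Of the 6 analyses that left out 1 library, 2 passed (adjusted p = 0.0419 to 0.137 over the 6). Under own-total scaling the difference was only -0.08 (limma adjusted p = 0.687).

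Notch2 (ENSMUSG00000027878, chr3:98013527-98150361, plus strand), a receptor of pancreatic duct and progenitor cells and of marginal zone B cells, went the other way. Its level was 0.423, 0.912 and 0.725 FPKM in the flox/flox libraries, from 69, 142 and 116 reads. In the libraries labelled knockout it was 1.21, 1.24 and 1.30 FPKM, from 272, 262 and 290 reads. Every labelled-knockout library lay above every flox/flox library, and flox/flox replicate 1 was the lowest. Notch2 was below the filter, and without a filter its difference of 0.58 ± 0.21 (SE) did not pass (limma adjusted p = 0.138).

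Within the summed receptor level, Notch2 took 3.16% ± 0.771 (flox/flox) against 8.85% ± 1.24 (labelled knockout; SD, n = 3 each). Notch4 took 29.7% to 33.0% and 24.5% to 27.3%, respectively. Notch3 was the receptor with the highest level in all 6 libraries, at 36.5% to 38.5% (flox/flox) and 34.4% to 36.0% (labelled knockout). Notch1 took 27.8% to 28.2% and 28.4% to 30.5%. The exact two-sided permutation p was 0.10 for the share of each of the 4 receptors, the smallest that 3 against 3 libraries allow. Summed over the 4 receptors, the level was 18.1 to 23.7 FPKM in the flox/flox group, against 12.1 to 16.5 in those labelled knockout, without overlap (exact permutation p = 0.10).

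Of the ligands, Dll4 fell furthest of all the tested members. Dll4 (ENSMUSG00000027314, chr2:119325784-119335962, plus strand), the Delta-like ligand of endothelial tip and arterial cells, was at 14.4, 12.5 and 15.1 FPKM in flox/flox replicates 1 to 3. Replicates 1 to 3 labelled knockout had 6.40, 7.47 and 6.46 FPKM. Even the lowest flox/flox library stood well above the highest of the other group. The difference was -0.99 ± 0.10 (SE, limma adjusted p = 0.000911), and it passed in all 6 analyses that left out 1 library (adjusted p = 0.0021 to 0.00745).

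Jag2 (ENSMUSG00000002799, chr12:112907819-112929776, minus strand), a Jagged ligand, was at 8.82, 9.95 and 10.2 FPKM in the flox/flox libraries and at 5.55, 6.44 and 5.98 in the others. The groups were well apart. Its difference of -0.65 ± 0.09 (SE, limma adjusted p = 0.00259) passed without any 1 library (adjusted p = 0.00549 to 0.0160).

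Jag1 (ENSMUSG00000027276, chr2:137081456-137116644, minus strand), the other Jagged ligand, had 2.73, 2.83 and 2.94 FPKM in flox/flox libraries and 2.06, 2.26 and 2.38 in those labelled knockout. The groups did not overlap and each was tight. Its smaller difference of -0.29 ± 0.09 (SE) missed the threshold (limma adjusted p = 0.0564), with an interval from -0.51 to -0.06. It passed in 3 of 15 alternatives: with quantile normalization, no variance trend or voom on recovered reads (adjusted p = 0.0169, 0.0365 and 0.0425). Of the 6 analyses that left out 1 library, 0 passed (adjusted p = 0.0986 to 0.152). Dll1 (ENSMUSG00000014773, chr17:15367354-15376872, minus strand), the ligand that acts on neighbouring progenitors in pancreas development, was at 2.13, 2.79 and 2.57 FPKM in flox/flox libraries and at 1.91, 2.78 and 1.89 in the others. Labelled-knockout replicate 2 lay within the flox/flox range, so the groups overlapped. The difference was -0.17 ± 0.16 (SE, limma adjusted p = 0.473), with an interval from -0.56 to 0.23.

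The ligands made up different shares of their sum. Dll4 took 44.4% to 51.2% of the summed ligand level (flox/flox) against 38.7% to 40.2% (labelled knockout), while Jag1 took 9.53% to 10.1% and 11.9% to 14.3%. Jag2 took 31.4% to 35.5% and 34.0% to 35.8%, which overlapped. The summed ligand level was 28.0 to 30.8 FPKM in flox/flox against 15.9 to 18.9 in labelled-knockout libraries (exact two-sided permutation p = 0.10).

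**Figure D2:**
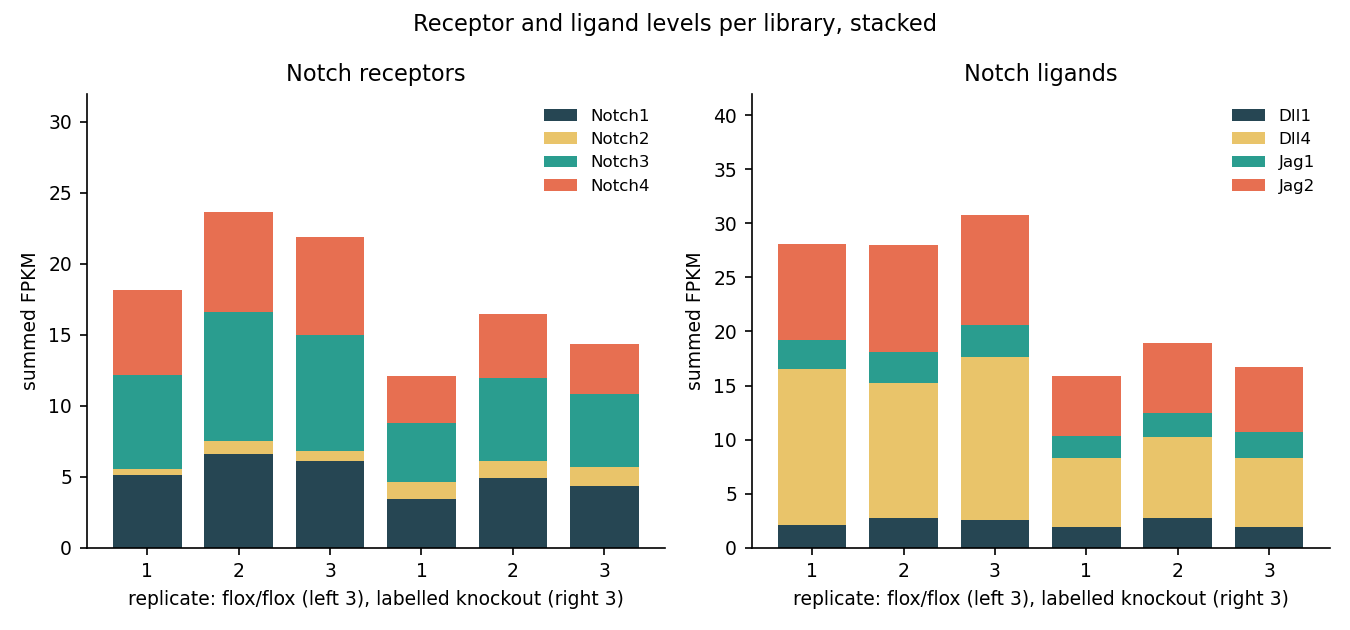
Stacked FPKM of the 4 receptors (left) and the 4 ligands (right), 1 bar per library, with 3 flox/flox libraries on the left of each panel and 3 labelled-knockout libraries on the right. Both totals are lower in the labelled-knockout libraries, while the Notch2 segment is larger.

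In the nucleus, the target fell and the DNA-binding partner did not. Hey1 (ENSMUSG00000040289, chr3:8663359-8667256, minus strand), a repressor induced by Notch, was at 4.25, 4.22 and 3.28 FPKM in the flox/flox libraries and at 2.07, 3.18 and 1.92 in those labelled knockout. The groups were separated by a narrow gap, between flox/flox replicate 3 and labelled-knockout replicate 2. Hey1 had only 130 to 210 reads per library. The difference was -0.63 ± 0.18 (SE, limma adjusted p = 0.0392). That call held without labelled-knockout replicate 2 (adjusted p = 0.0112) and was lost without replicate 1, 2 or 3 of flox/flox (adjusted p = 0.109, 0.106 and 0.0508), without labelled-knockout replicate 1 or 3 (adjusted p = 0.102 and 0.122) and with no filter on low values (adjusted p = 0.0903).

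Rbpj (ENSMUSG00000039191, chr5:53466152-53657362, plus strand), which binds DNA and holds target genes off until the Notch intracellular part arrives, was at 1.87, 1.75 and 2.15 FPKM in flox/flox libraries. The libraries labelled knockout had 2.35, 2.55 and 2.62 FPKM. All of them were above all flox/flox libraries. The difference of 0.31 ± 0.11 (SE) did not pass (limma adjusted p = 0.0689). It passed in 3 of 15 alternatives: with no variance trend (adjusted p = 0.0434), with voom on recovered reads (adjusted p = 0.0199) and under own-total scaling, where it was larger (0.65, adjusted p = 0.00395). Of the 6 analyses that left out 1 library, 0 passed (adjusted p = 0.0722 to 0.203). With quantile normalization the difference was 0.19 (adjusted p = 0.221).

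RBPJ is known to bind a core of TGGGAA, and the RefSeq promoter windows (GRCm38.p6, 250 bases before to 50 after each start) were searched for it on both strands. Of the 10 members 9 were in that table. The target Hey1 was not, so its promoter was not searched, and neither were those of Hes1 and Heyl. Of the 9 members only Rbpj held the core, against 28.3% of 27025 genes with a window (25.6% of 32851 windows). The longer GTGGGAA, which contains the core, was in 0 of the 9 and in 7.25% of genes. The core was in 18 of the 54 other pathway genes that have a window, and GTGGGAA in 8 of these 54. Of the genes described below, Poglut1, Psenen, Dtx2, Maml2 and Kat2a hold the core and are not printed. The stretches with the core are printed for Rbpj and for Lfng and Hey2, also described below. They are on the strand of the gene, with TGGGAA or its reverse complement TTCCCA in capitals.
Rbpj, chr5:53590185-53590298, plus strand: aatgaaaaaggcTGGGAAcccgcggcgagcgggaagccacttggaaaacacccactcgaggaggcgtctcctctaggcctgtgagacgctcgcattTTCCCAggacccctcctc
Lfng, chr5:140607194-140607250, plus strand: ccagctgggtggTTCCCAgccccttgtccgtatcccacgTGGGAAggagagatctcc
Hey2, chr10:30842781-30843002, minus strand: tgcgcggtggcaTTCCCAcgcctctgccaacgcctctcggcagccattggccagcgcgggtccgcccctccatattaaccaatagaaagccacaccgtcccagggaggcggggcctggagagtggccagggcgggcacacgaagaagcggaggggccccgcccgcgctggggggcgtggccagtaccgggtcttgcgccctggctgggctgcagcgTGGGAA
A match describes letters in this window and not binding, and a window without one says nothing of RBPJ elsewhere at the gene.

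The other pathway genes changed in both directions. Of 65 listed genes 57 were tested, and 12 rose, 14 fell and 31 did not pass. That is 45.6% called, against 34.0% of all tested genes. By role the share ran from 33.3% (receptor cleavage, 9 tested) to 53.8% (corepressors, 13 tested), so some of these short lists lay near the share of all genes. The median difference of the 57 genes was -0.05. With own-total scaling, which moves the median of all genes to 0.36, the balance was 32 higher and 5 lower, and the counts per role below hold for the deposited scaling.

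Of the 4 tested genes listed as other Notch targets 2 fell, 0 rose and 2 did not pass, with a median difference of -0.53. Over all tested genes 17.2% were called lower and 16.9% higher. The list is not complete: Dtx1, a Notch target in lymphocytes counted below with the ubiquitin ligases, rose. Hey2, a repressor related to Hey1 and known from arterial endothelium, was at 2.60, 2.95 and 2.87 FPKM in flox/flox libraries and at 1.20, 1.39 and 1.42 in the others. Its difference was -0.85 ± 0.11 (SE, limma adjusted p = 0.00258). Hes1, the target that holds back endocrine differentiation, was at 11.6, 18.2 and 13.1 FPKM and at 8.55, 8.69 and 8.88, so the groups were apart and flox/flox replicate 2 was the highest. Its fall of -0.66 ± 0.16 (SE, limma adjusted p = 0.0199) missed the threshold without labelled-knockout replicate 1, 2 or 3 (adjusted p = 0.0512, 0.0511 and 0.0617) and under own-total scaling (adjusted p = 0.195). Heyl and Nrarp did not pass, and Hes5 and Hes7 were below the filter.

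Among genes that sugar-modify the receptors, 2 of 5 rose and 0 fell. Lfng, a Fringe enzyme that shifts receptor preference toward Delta-like ligands, went from 1.77 ± 0.439 to 3.21 ± 0.503 FPKM (SD, n = 3 each), a difference of 0.72 ± 0.18 (SE, limma adjusted p = 0.0249). Lfng lost its call without labelled-knockout replicate 1 or 2 (adjusted p = 0.0669 and 0.0731) and, at the threshold itself, without replicate 3 of flox/flox. Poglut1, which adds glucose to the receptors, rose by 0.33 ± 0.09 (SE, limma adjusted p = 0.0267) and lost its call without 1 of 4 libraries, replicates 2 and 3 of flox/flox and 1 and 3 labelled knockout (adjusted p = 0.0683 to 0.0908).

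Of 9 tested genes for receptor cleavage 2 rose, 1 fell and 6 did not pass (33.3% called, against 34.0% of all tested genes). Subunits of the γ-secretase complex went both ways. Ncstn, the substrate-receiving subunit nicastrin, was at 21.8, 21.2 and 22.4 FPKM in flox/flox libraries and at 44.5, 32.9 and 37.8 in the others, a rise of 0.79 ± 0.11 (SE, limma adjusted p = 0.00306). Psenen, the small subunit PEN-2, fell from 43.1 ± 4.07 to 26.9 ± 3.04 FPKM (SD, n = 3 each), a difference of -0.67 ± 0.11 (SE, limma adjusted p = 0.00484). Both subunits thus had groups that did not overlap, in opposite directions. Furin, the protease that first cuts the receptor in the secretory pathway, rose by 0.56 ± 0.07 (SE, limma adjusted p = 0.00192). Adam10 and Adam17, which cut the receptor at the cell surface, did not pass.

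Of 16 genes for ubiquitin ligases and endocytosis 3 rose, 4 fell and 9 did not pass, and members of the Deltex family went both ways. Dtx1, itself a known Notch target in lymphocytes, was at 1.33, 1.12 and 1.48 FPKM in flox/flox libraries and at 3.56, 3.48 and 3.02 in the others (1.09 ± 0.13 SE, limma adjusted p = 0.00143). Dtx3 fell from 60.7 ± 3.38 to 36.9 ± 2.41 FPKM (SD, n = 3 each; -0.71 ± 0.08 SE, limma adjusted p = 0.00115). Dtx3l rose by 0.51 ± 0.13 and Dtx2 was lower at -0.58 ± 0.15 (SE, limma adjusted p = 0.0268 and 0.0260). Both of these calls were lost in 4 of the 6 analyses that left out 1 library: Dtx2 without replicate 1 or 2 of flox/flox, or 1 or 3 labelled knockout (adjusted p = 0.0598 to 0.0812), and Dtx3l without replicate 1 or 2 of flox/flox, or 2 or 3 labelled knockout (adjusted p = 0.0583 to 0.0926). Dtx2 also lost it with own-total scaling (adjusted p = 0.207).

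Of 8 coactivators 2 rose, 2 fell and 4 did not pass. Maml1 and Maml2, of the Mastermind-like family, rose by 0.28 ± 0.08 and 0.51 ± 0.13 (SE, limma adjusted p = 0.0313 and 0.0229). The acetyltransferases Kat2a and Kat2b were lower, at -0.28 ± 0.07 and -0.26 ± 0.08 (SE, limma adjusted p = 0.0248 and 0.0447), and with own-total scaling their sign turned, to 0.11 and 0.13. These 4 calls are near the threshold. Maml1 lost its call without replicate 1 or 2 of flox/flox, or any 1 library labelled knockout (adjusted p = 0.0502 to 0.107), and Maml2 without replicate 1 or 3 of either group (adjusted p = 0.0505 to 0.0669). Kat2a lost it without any 1 flox/flox library or replicate 1 labelled knockout (adjusted p = 0.0539 to 0.0684), and Kat2b without any 1 flox/flox library or replicate 1 or 3 labelled knockout (adjusted p = 0.0651 to 0.153). With no filter on low values Lfng, Poglut1, Dtx2, Dtx3l, Maml1, Maml2 and Kat2b did not pass (adjusted p = 0.051 to 0.0722). With the replicate number as a block Maml1 and Kat2b did not pass (adjusted p = 0.0545 and 0.0748). Quantile normalization also lost the calls of Maml1, Maml2 and Kat2b (limma adjusted p = 0.0771, 0.0798 and 0.0562). Kat2b did not pass with no variance trend either (limma adjusted p = 0.0661).

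Of 13 tested genes of the corepressor list 2 rose, 5 fell and 6 did not pass. Kyat1, 1 of the 5 that fell, is the gene of a metabolic enzyme and not a known corepressor. It is also included in the counts over all other pathway genes. Tle1 to Tle4, Groucho-family corepressors recruited by Hes proteins, went both ways. Tle3 fell from 9.47 ± 0.872 to 4.64 ± 0.0908 FPKM and Tle2 from 13.2 ± 1.14 to 7.28 ± 0.716 (SD, n = 3 each; limma adjusted p = 0.000588 and 0.00172). Tle1 rose from 4.54 ± 0.529 to 8.36 ± 0.663 FPKM and Tle4 from 1.61 ± 0.285 to 3.30 ± 0.383 (limma adjusted p = 0.00193 and 0.00521). The differences were -0.95 ± 0.08, -0.81 ± 0.10, 0.82 ± 0.10 and 0.86 ± 0.14 (SE) for Tle3, Tle2, Tle1 and Tle4. Of the 2 tested ligands outside the Dll and Jag families, Dner rose by 0.60 ± 0.09 (SE, limma adjusted p = 0.00386) and Cntn1 did not pass. Dlk1, a gene known to be expressed in islets, is listed at 0 in all 6 libraries, and no level is read from that value.

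**Figure D3:**
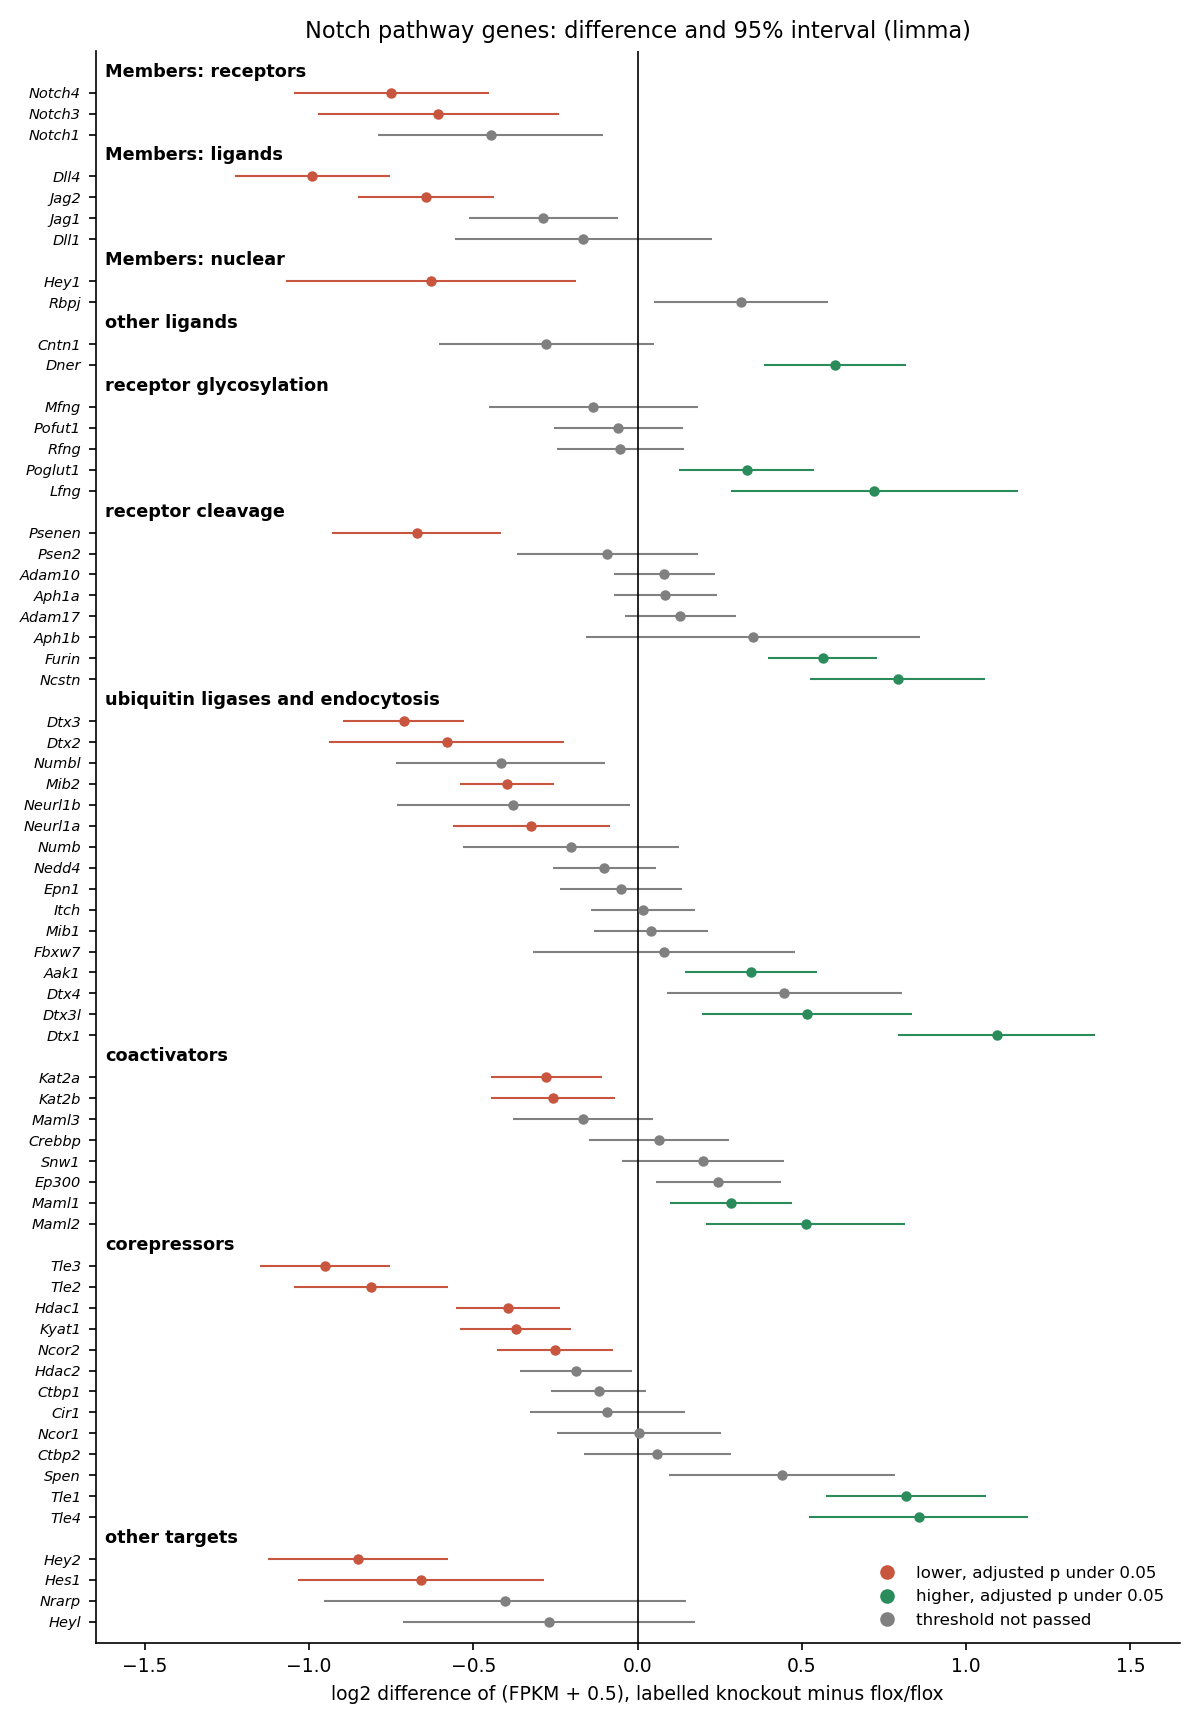
Log2 difference of (FPKM + 0.5), labelled knockout minus flox/flox, with its confidence interval from limma for the tested members and other Notch pathway genes, grouped by role, with 1 cleavage gene not shown. The members and the other targets lie mostly to the left of 0, while receptor cleavage genes, coactivators and corepressors spread to both sides.

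Markers of several other cell types differed between the groups, beside the fall of the β-cell list given above. In bulk RNA, fewer cells of a type and less RNA per cell cannot be told apart. All 16 tested endothelial markers of an 18-gene list fell, with a summed level of 736 to 783 FPKM (flox/flox) against 399 to 453 (labelled knockout), and none of the 18 was at 0 throughout. Plvap and Esm1, the most abundant, went from 259.7 ± 4.25 to 153 ± 11.1 and from 175 ± 8.42 to 70.7 ± 6.30 FPKM (SD, n = 3 each). A 6-gene arterial list summed to 21.2 to 26.3 FPKM and to 15.7 to 17.3. Of its 4 tested genes 2 fell. The pericyte and stellate list summed to 129 to 145 FPKM and to 87.6 to 96.0, led by Rgs5 at 95.7 ± 3.31 and 49.4 ± 2.25. Of its 13 tested genes 5 rose and 2 fell.

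Lymphocyte and enterocyte markers went the other way. All 10 B-cell markers rose, with a summed level of 3.25 to 6.81 FPKM in flox/flox libraries and 84.6 to 133 in those labelled knockout. The T-cell list summed to 1.61 to 2.41 and to 19.4 to 35.0 FPKM, and all 6 tested genes rose. The enterocyte list summed to 49.4 to 58.8 FPKM and to 147, 912 and 472 in labelled-knockout replicates 1, 2 and 3, with 12 of 13 tested genes rising. The ductal list, at 358 to 506 and 482 to 570 FPKM, overlapped between groups. The macrophage list overlapped likewise. So did the intestinal crypt and secretory list, at 52.0 to 53.2 and 35.6 to 92.4 FPKM. Of its 6 tested genes 4 rose and 1 fell. Olfm4, its most abundant gene, went from 50.8 ± 0.457 to 26.6 ± 4.75 FPKM (SD, n = 3 each). Tff3 went from 0.135 ± 0.134 to 18.5 ± 12.3 FPKM. Of 12 tested acinar markers 9 fell and 0 rose, with a summed level of 758 to 2316 FPKM (flox/flox) against 356 to 643 (labelled knockout). For 8 of the 12 marker lists the summed levels had an exact two-sided permutation p of 0.10, adjusted over the 12 lists p = 0.15. The part of these cells in the levels of the Notch genes was not tested. Labelled-knockout replicate 2 was the highest library of its group for 7 of the 10 members, but for only 37.3% of all tested genes. Replicate 1 of that group was the highest for 0 members and for 41.4% of genes.

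Set against the endothelial list, 4 of the 5 members that fell no longer separated the groups. The measure is the log2 ratio of a member's FPKM to the summed endothelial FPKM in the same library. Within a library it subtracts the same value from every gene, so any gene that fell by a like amount moves toward 0. How many of all tested genes separate or overlap on this ratio was not counted. The overlaps below are thus not particular to Notch genes, and a part of endothelial cells in the falls was not tested. Plvap and Esm1, the most abundant of the list, weigh most in that sum. The 16 tested endothelial markers had a median difference of -0.75, while the summed level itself differed by -0.86 on the log2 scale. Relative to it, Notch4 differed by 0.03, Hey1 by 0.12, Dll4 by -0.18 and Notch3 by 0.21, with overlapping groups (exact two-sided permutation p = 1.0, 0.7, 0.3 and 0.3). Jag2 was higher by 0.17, without overlap. Rbpj and Notch2 were higher by 1.25 and 1.79, Dll1, Jag1 and Notch1 by 0.66, 0.51 and 0.37, also without overlap (exact permutation p = 0.10 for each of these 6, adjusted over the 10 members p = 0.167). Against the arterial list in its place, Dll4 and Notch4 were lower by -0.55 and -0.33, and Rbpj and Notch2 higher by 0.88 and 1.43, with groups that did not overlap for these 4 (exact permutation p = 0.10, adjusted p = 0.25). The other 6 overlapped. These ratios describe levels and were not built to separate cell numbers from RNA per cell.

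**Figure D4:**
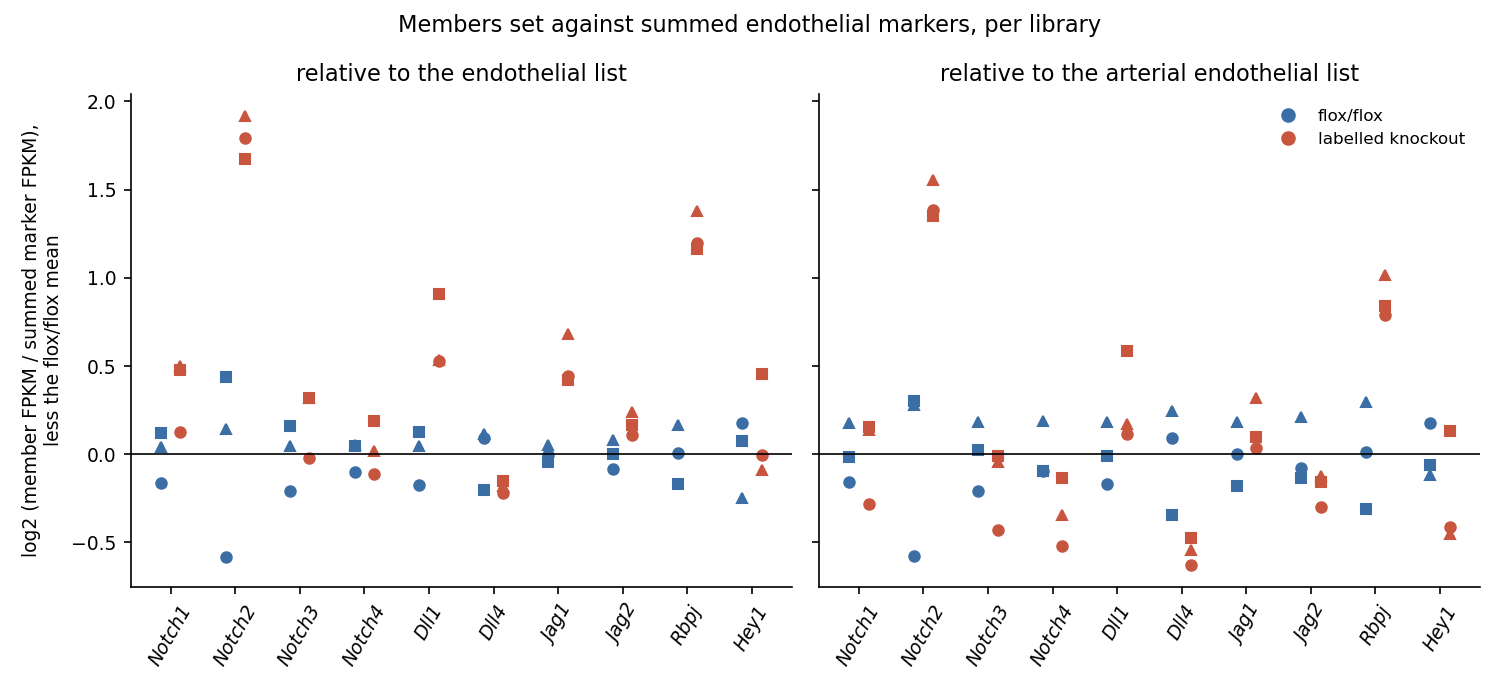
Log2 ratio of each member's FPKM to the summed FPKM of the endothelial list (left) or the arterial list (right), per library, less the flox/flox mean of that member. Notch2 and Rbpj lie above the flox/flox libraries in both panels, Notch4, Hey1 and Notch3 overlap on the left, and Dll4 lies below on the right.

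The deposited FPKM use a divisor that, relative to a library's total reads, was 0.855 to 0.885 (flox/flox) against 1.13 to 1.17 (labelled knockout). Scaled to own totals, the median of all genes moved to 0.36. On that scale Dll4 (-0.61, limma adjusted p = 0.00302) and Notch4 (-0.38, adjusted p = 0.0481) still passed as lower. Jag2 (-0.26), Hey1 (-0.28) and Notch3 (-0.23) did not (adjusted p = 0.0563, 0.234 and 0.270), and Rbpj passed as higher (0.65, adjusted p = 0.00395). Dll1 and Jag1 changed sign, to 0.17 and 0.05. Relative to the shift of all genes, Dll4 was at -0.97, Notch4 at -0.74, Hey1 at -0.64, Jag2 at -0.62, Notch3 at -0.59 and Rbpj at 0.29. As CPM (reads scaled to the own total), Dll4 had 42.3 to 51.5 (flox/flox) against 28.0 to 33.7 (labelled knockout), and Rbpj had 19.7 to 24.3 and 34.0 to 39.1. The groups then did not overlap for 4 members, with Dll4 and Jag2 lower and Rbpj and Notch2 higher. On that scale 7550 of all tested genes were called higher and 716 lower, so a rise there is common. The share of all genes whose groups separate on own totals was not counted.

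**Figure D5:**
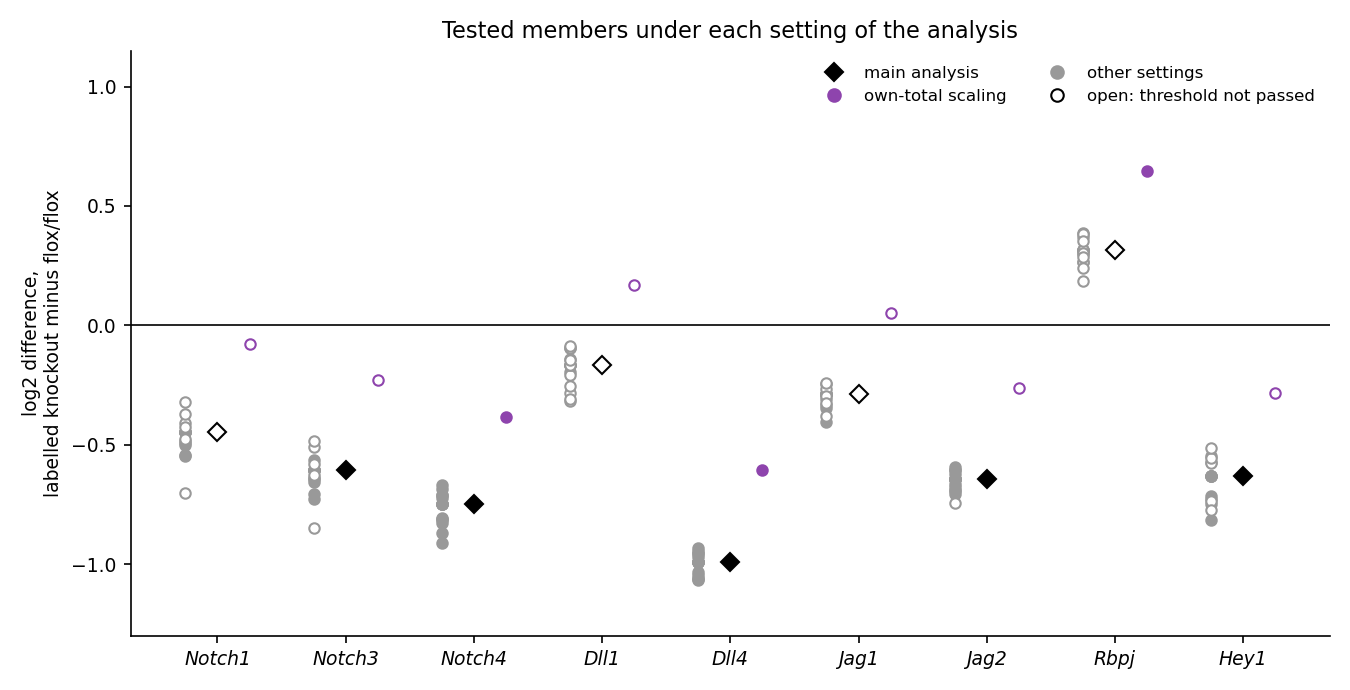
Log2 difference of each tested member (labelled knockout minus flox/flox) in the main analysis (diamonds), with own-total scaling (purple) and in every other setting (grey); filled symbols passed at an adjusted p under 0.05. Dll4 and Notch4 are filled in all settings, and own-total scaling moves all 9 members upward.

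The tested genes with the pattern most like Dll4 were Acot13, Cfap126 and Kif19a, with a mean absolute distance of 0.042, 0.042 and 0.053 on the log2 scale over the 6 libraries after centring each gene. For Hey1 they were Gm17690, Gm12251 and Dtx2, at 0.068 each. With 6 libraries and many genes that separate the groups, such likeness is a description. Of these 6 only Dtx2 is a Notch pathway gene of the lists.

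Several members overlap other annotated genes. Notch1, Notch3, Dll1 and Dll4 each have a transcribed neighbour on the opposite strand, with at most 58 reads in any library (0610009E02Rik at Notch1). The strandedness of the libraries is not given in the sources used here, so reads of such pairs may be shared. Jag1 and Hey1 overlap no other gene of the table.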

How the data were processed

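Islet RNA was sequenced in 6 libraries, grouped by sample title and genotype label. The tools named per the submitters' processing notes are DESeq2 1.16.1, HISAT2 2.0.5 and featureCounts 1.5.0-p3, and the build is GRCm38.p6; their settings and roles are not stated there. The authors deposited 1 table of FPKM values. Multiplied by gene length, all values lay within 0.1 of whole multiples of 1 step per library (the median of the 300 lowest values above 0). These whole numbers were taken as reads. Median-of-ratios factors of the deposited FPKM over 19623 genes were 1 in every library, so the values were used as deposited.

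For genes with a mean of at least 1 FPKM, limma 3.58.1 (R 4.3.3, variance trend) was run on log2(FPKM + 0.5), with two-sided p-values adjusted by Benjamini-Hochberg with a threshold of 0.05. The fit was also run on simulated data in which far fewer genes changed than were called here. No result above rests on that run. Single values were compared by exact permutation. Members and lists were chosen with earlier results of these data known. Genes named beyond the members are up to 4 per pathway list with the largest change past the threshold, with Hes1 and Lfng always. Of marker lists, up to 2 with the highest mean are named. The genes most like Hey1 and Dll4 have the smallest mean absolute distance of centred log2 values. Names given without values were added after values were seen. In the receptor cleavage list, 1 gene is counted but not reported here by name. Of the listed marker genes, Amy2a5 was not matched by symbol. Alternatives were other pseudocounts (0.1 and 1), filters (none and 5 FPKM) and scalings, voom, no variance trend, a replicate block and leaving out each library.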

Additional observations from a re-analysis of the deposited data

How the results depend on the processing

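Dll4 and Notch4 passed as lower in each of the 16 alternatives listed in the methods, and Jag2 in 15 of 16. With no filter 3 members were lower, and 7 other pathway genes higher. A filter at 5 FPKM gave 3090 calls, 1247 of them higher, with 6 other pathway genes higher. Own-total scaling gave 8266 calls, 7550 higher and 716 lower. There 1 member was higher and 2 lower, and 32 other pathway genes were higher and 5 lower. That scaling turned the sign of Dll1 (0.17), Jag1 (0.051), Kat2a (0.11) and Kat2b (0.13). It shifts all genes by construction. With voom and with no variance trend 1 member (Rbpj) was higher. Leaving out 1 library gave 2780 to 4236 calls (4935 in the main analysis), 1370 to 2106 higher and 1410 to 2130 lower, with 3 to 6 members lower, 7 to 9 other pathway genes higher and 9 to 15 lower. The lowest counts came without labelled-knockout replicate 3, and 3 members were lower without that library, replicate 2 or 3 of flox/flox, or replicate 1 labelled knockout. The count of 9 came without replicate 1 of flox/flox, or 1 or 3 labelled knockout. Replicates 2 and 3 labelled knockout had the highest enterocyte sums. Without both, a setting chosen after seeing the data that assumes the lone library to vary like the other group, 1317 genes were called (771 higher, 546 lower), with 2 members lower (Dll4 and Notch4), 3 other pathway genes higher and 4 lower. Causes of these losses beyond fewer libraries were not tested. With the arterial list in place of the endothelial list, the relative differences became 0.0011 for Notch1, -0.16 for Notch3, -0.33 for Notch4, 0.29 for Dll1, -0.55 for Dll4, 0.15 for Jag1, -0.19 for Jag2, 0.88 for Rbpj and -0.24 for Hey1. With GTGGGAA, 0 of the 9 members with a promoter window held the motif. Same-numbered libraries had correlated deviations of 0.081, 0.075 and 0.042, and each correlated best with its own number. Libraries of different numbers had -0.068 to -0.011. These correlations are small, the labels give no pairing, and the main analysis used no block. With the replicate block 4659 genes were called and 6 members were lower, with Notch1 added (adjusted p = 0.0143), while Maml1 and Kat2b lost their calls (adjusted p = 0.0545 and 0.0748). Notch2, Hey1, Jag1 and Dll1 had under 300 reads in every library, and the part of depth in their results was not tested.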
